A study of Mus musculus with 57 samples.

Results

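The interleukin-1 (IL-1) family and its receptors were followed in mouse distal colon and in colon tumors through 10 listed genes: the ligands Il1a, Il1b, Il18, Il33, Il36a and Il36g, the receptor antagonist Il1rn, and the receptors Il1r1, Il1r2 and Il1rl1. The genes were listed by name, and 9 of the 10 had a named probe set among the 22180 genes of the array. Il36a and Il36g appear under older names and were matched by gene identifier. Il1rl1, the receptor for IL-33, was not analysed here.

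The study used female C57BL/6 mice aged 18 to 24 weeks. All carried the floxed insulin receptor gene: INSRfl/fl littermates (fl/fl below) kept the receptor, and villin-CRE-INSR-/- mice (knockout below) lost it where Cre is driven by the villin promoter, that is, in intestinal epithelium. Distal colon was taken from untreated mice (10 fl/fl, 10 knockout) and from mice given azoxymethane and dextran sulfate sodium (AOM+DSS; 10 fl/fl, 10 knockout). Tumors were taken after the same treatment (8 fl/fl, 9 knockout). AOM, a carcinogen, was injected at 7.4 mg/kg, and 3% DSS, which injures the colon lining, was started in week 2 for 7 days. Tissue was collected in week 5. The labels call the samples biological replicates and give no link between tumors and colons by mouse.

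IL-1 family cytokines are early signals of tissue injury and infection. IL-1 alpha and IL-1 beta act through IL-1R1, which pairs with the accessory protein IL-1RAP and signals through MyD88, IRAK kinases and TRAF6 to NF-kappaB. The antagonist encoded by Il1rn occupies IL-1R1 without signalling, and IL-1R2 binds IL-1 as a decoy. IL-1 beta and IL-18 are made as precursors that caspase-1 can cut in inflammasomes. IL-33 and IL-1 alpha are held inside cells and released on damage, and the IL-36 cytokines act mainly at skin and mucosal surfaces.

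The values are log2 levels from whole-transcript arrays, normalised by robust multi-array average (RMA), so a difference of 1 is a doubling. A level of one gene cannot be set against that of another on this scale. Differences are given as log2 value ± standard error, with the fold beside them. The P values come from limma over all 57 arrays, Benjamini-Hochberg adjusted over the 22180 genes, and a gene was called changed at an adjusted p below 0.05. The medians of the 57 arrays spanned 5.92 to 6.04, and Pearson's r of an array with others of its group averaged at least 0.98. Insr, the targeted gene, had a lower mean in the knockout groups: 8.04 against 8.98 in untreated colon, 7.74 against 8.58 after AOM+DSS, and 7.53 against 8.18 in tumors; 1 knockout tumor, replicate 8, stood at 8.35. The colon epithelium markers Epcam and Vil1 were bright in every group (lowest array at 11.67 and 10.75), and Cdx2 was dimmer (lowest array at 6.50). Their levels were not all steady. In tumors against untreated colon, Cdx2 differed by -0.71 in fl/fl and -1.27 in knockout and Vil1 by -0.36 and -0.50. Epcam differed by 0.05 and 0.14 there.

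Of the 9 genes, 8 had a RefSeq promoter window, from 250 bases before to 50 after a transcript start. The searches were for a TATA box (TATAAA), an AP-1 site (TGANTCA) and the kappaB consensus, on both strands. Over all 32851 windows of this length, 13.6% held the TATA motif, 7.81% the AP-1 motif and 4.51% the kappaB consensus. Some of the members that rose (Il1a, Il1b, Il1rn) and the member that fell (Il18) are shown, with matches in capitals. They are on GRCm38.p6, 5′ to 3′ in the direction of the gene: Il1a chr2:129309978-129310007 (minus strand), Il1b chr2:129371165-129371389 (minus strand), Il1rn chr2:24336610-24336859 (plus strand) and Il18 chr9:50554450-50554699 (plus strand).
Il1a: gacTATAAAaaggcagagaagccTGACTCA
Il1b: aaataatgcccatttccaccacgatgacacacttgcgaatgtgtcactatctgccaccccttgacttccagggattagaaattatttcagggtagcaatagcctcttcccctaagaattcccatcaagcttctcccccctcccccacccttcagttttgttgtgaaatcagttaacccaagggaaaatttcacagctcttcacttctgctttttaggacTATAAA
Il1rn: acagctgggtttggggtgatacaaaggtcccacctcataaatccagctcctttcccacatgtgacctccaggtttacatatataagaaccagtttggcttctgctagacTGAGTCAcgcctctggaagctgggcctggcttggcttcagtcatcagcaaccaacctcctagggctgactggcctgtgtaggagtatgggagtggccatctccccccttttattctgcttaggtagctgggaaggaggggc
Il18: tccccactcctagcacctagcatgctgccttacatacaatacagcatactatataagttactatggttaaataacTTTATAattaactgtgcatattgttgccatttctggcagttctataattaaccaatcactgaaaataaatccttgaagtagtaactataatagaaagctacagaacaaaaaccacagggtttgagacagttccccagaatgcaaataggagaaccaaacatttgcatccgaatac
Counted from the transcript start, the TATA motif began at -32 and the AP-1 motif at -12 in Il1a, and the TATA motif at -31 in Il1b. The AP-1 motif began at -141 in Il1rn, and a TATA motif on the other strand at -175 in Il18. Il1r1 had a kappaB match in a second window, and Il33 had TATA matches in 2 windows. Il1rn window 3, which is not shown, held a TATA motif on the other strand at 15. No motif was found in the windows of Il1r2 or Il36g, which also rose and are not shown. The stretches shown, each with a match, therefore do not stand for all members that rose. A match describes letters and does not show a bound site.

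**Figure D1:**
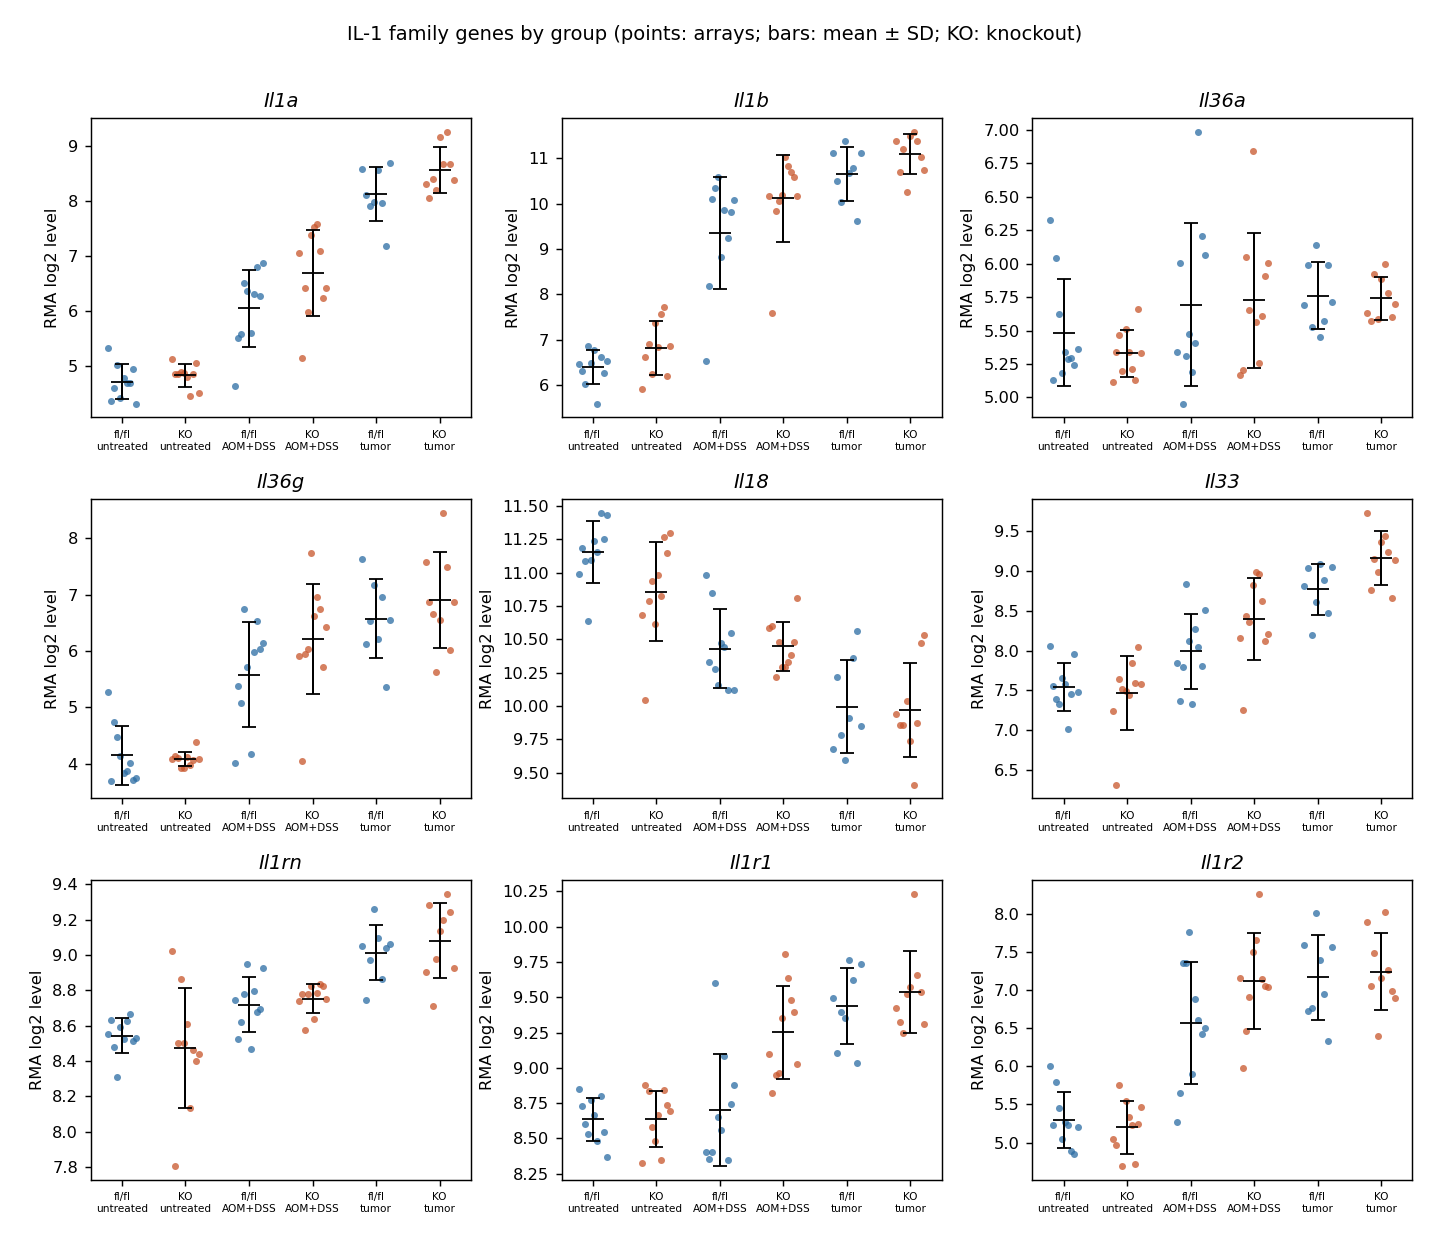
RMA log2 level of the 9 genes in each array (points) of the 6 groups; bars give the mean ± SD, blue is fl/fl and orange knockout (KO). Il1a and Il1b step up from untreated colon to AOM+DSS colon to tumor, Il18 steps down, and single AOM+DSS arrays lie low for Il1b, near 6.54 in fl/fl and 7.59 in knockout.

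After AOM+DSS, Il1b, Il1a, Il36g and the decoy receptor Il1r2 rose and Il18 fell in the colon of both genotypes. In fl/fl colon, 4 genes rose and 1 fell of 9, while 22.7% of all genes were called (12.2% higher, 10.5% lower). In knockout colon, 7 rose and 1 fell, while 30.2% of all genes were called (16.0% higher, 14.2% lower). The median difference of the 9 genes was 0.44 in fl/fl and 0.92 in knockout, against -0.04 in both for all genes.

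Il1b, the inducible secreted ligand, had the largest difference of the 9. In untreated fl/fl colon its level ran from 5.59 (median 6.47) to 6.86, and after AOM+DSS from 6.54 (median 9.84) to 10.58. In untreated knockout colon it ran from 5.91 (median 6.85) to 7.71, and after AOM+DSS from 7.59 (median 10.18) to 11.03. In each genotype 9 of 10 AOM+DSS arrays exceeded every untreated array and 1 lay inside the untreated range. Il1b rose by 2.97 ± 0.33 in fl/fl (7.83-fold, adjusted p = 2.45e-09) and by 3.29 ± 0.33 in knockout (9.79-fold, adjusted p = 2.48e-11).

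Il1a, the precursor held inside epithelial and other cells, ran from 4.31 (median 4.69) to 5.33 in untreated fl/fl colon and from 4.64 (median 6.29) to 6.86 after AOM+DSS. In knockout colon it ran from 4.45 (median 4.85) to 5.13 untreated and from 5.14 (median 6.74) to 7.58 after AOM+DSS. The knockout groups did not overlap, and in fl/fl 9 of 10 treated arrays exceeded every untreated array. Il1a rose by 1.33 ± 0.23 in fl/fl (2.52-fold, adjusted p = 1.54e-05) and by 1.86 ± 0.23 in knockout (3.62-fold, adjusted p = 4.18e-09).

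Of the IL-36 ligands, Il36g was dim in untreated colon: its mean there, like that of Il1a, lay below 5.01, the 25th percentile of the genes' means over all arrays. Il36g ran from 3.69 (median 3.94) to 5.27 in untreated fl/fl colon and from 4.004 (median 5.85) to 6.75 after AOM+DSS, a rise of 1.43 ± 0.32 (2.70-fold, adjusted p = 0.000657). In knockout colon it ran from 3.93 (median 4.08) to 4.39 and from 4.05 (median 6.23) to 7.74, a rise of 2.13 ± 0.32 (4.38-fold, adjusted p = 3.95e-07). Il36a was not called in either genotype: the difference was 0.21 (95% interval -0.13 to 0.55) in fl/fl and 0.40 (0.05 to 0.74) in knockout; the knockout difference passed the threshold with array weights (adjusted p = 0.0266), under quantile normalization (0.0441) and without the 2 AOM+DSS arrays of lowest Il1b (0.04), and in 3 of the 20 fits that left out 1 array of these groups. Its treated arrays spread widely, from 4.95 (median 5.44) to 6.98 in fl/fl and from 5.17 (median 5.63) to 6.84 in knockout.

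Il18, which colon epithelium expresses at rest, moved the other way. In fl/fl colon it ran from 10.64 (median 11.17) to 11.45 untreated and from 10.12 (median 10.39) to 10.98 after AOM+DSS; 8 of 10 treated arrays lay below every untreated array. In knockout colon it ran from 10.04 (median 10.88) to 11.30 and from 10.22 (median 10.43) to 10.81, and no treated array lay below the lowest untreated one, replicate 2 at 10.04, with the next at 10.61. Il18 fell by 0.72 ± 0.13 in fl/fl (1.65-fold, adjusted p = 3.99e-05) and fell by 0.41 ± 0.13 in knockout (1.33-fold, adjusted p = 0.0121). In bulk tissue, fewer cells of a type and less RNA per cell cannot be told apart.

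Il33, an alarmin of stromal and epithelial nuclei, ran from 7.01 (median 7.52) to 8.05 in untreated fl/fl colon and from 7.33 (median 7.94) to 8.84 after AOM+DSS. In knockout colon it ran from 6.32 (median 7.55) to 8.05 and from 7.25 (median 8.40) to 8.98. Treated arrays above every untreated array numbered 4 of 10 in fl/fl and 9 of 10 in knockout. In knockout colon it rose by 0.92 ± 0.18 (1.89-fold, adjusted p = 4.4e-05). In fl/fl the difference was 0.44 ± 0.18 (adjusted p = 0.0632), and it passed the threshold when any 1 of 4 arrays of these groups was left out, and also without untreated knockout replicate 2 (adjusted p = 0.0416), with both AOM+DSS arrays of lowest Il1b left out (0.0407) and with array weights (0.0229). The difference between genotypes in this response was 0.48 (95% interval -0.03 to 0.98) and was not called.

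Among the receptors and the antagonist, Il1r2 ran from 4.85 (median 5.23) to 6.00 in untreated fl/fl colon and from 5.27 (median 6.55) to 7.75 after AOM+DSS. In knockout colon it ran from 4.69 (median 5.23) to 5.75 and from 5.97 (median 7.10) to 8.26, without overlap. It rose by 1.27 ± 0.24 in fl/fl (2.41-fold, adjusted p = 7.19e-05) and by 1.91 ± 0.24 in knockout (3.77-fold, adjusted p = 6.83e-09). Il1a and Il1r2 were the 2 of 9 genes whose treated and untreated knockout groups did not overlap (3.68% of all genes did so with treated higher and 1.06% with treated lower), and in fl/fl none of the 9 did (0.821% of all genes with treated higher and 0.234% with treated lower). Il1rn ran from 8.31 (median 8.54) to 8.67 in untreated fl/fl colon and from 8.47 (median 8.72) to 8.95 after AOM+DSS, and from 7.80 (median 8.48) to 9.02 and 8.58 (median 8.78) to 8.83 in knockout. It rose by 0.28 ± 0.09 in knockout (1.21-fold, adjusted p = 0.00962) and was not called in fl/fl (0.17, 95% interval 0.00 to 0.35). Treated arrays of Il1rn above every untreated array numbered 7 of 10 in fl/fl and 0 of 10 in knockout. The genotype difference in its response was 0.10 (95% interval -0.14 to 0.35) and was not called. Il1r1, the signalling receptor, ran from 8.37 (median 8.64) to 8.85 in untreated fl/fl colon and from 8.33 (median 8.68) to 8.88 in untreated knockout colon. After AOM+DSS it rose by 0.61 ± 0.12 in knockout (1.53-fold, adjusted p = 8.69e-05) and was not called in fl/fl (0.07, 95% interval -0.18 to 0.32).

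**Figure D2:**
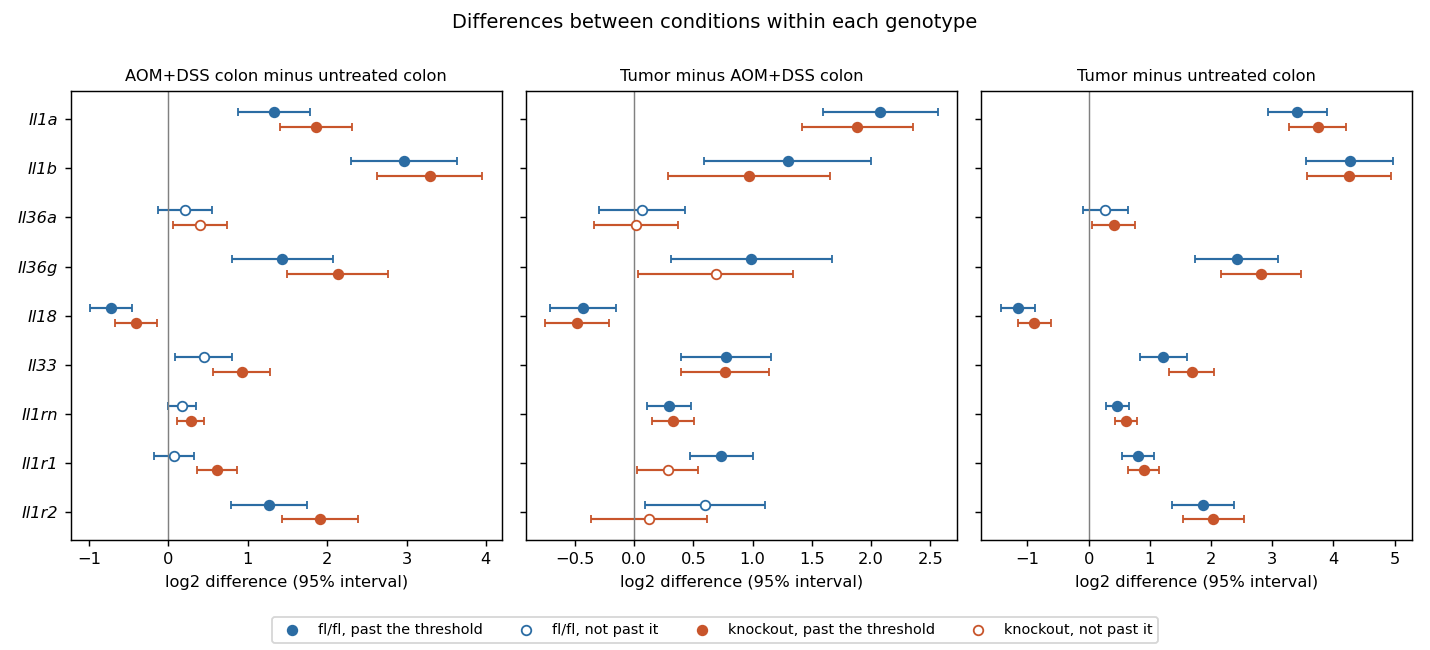
Log2 difference with 95% interval for each gene in 3 comparisons of conditions, blue for fl/fl and orange for knockout; filled points passed an adjusted p of 0.05. Il18 lies left of 0 in each panel, and Il1b has its largest differences, 4.26 in each genotype, in the comparison of tumors with untreated colon.

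Tumors were compared with AOM+DSS colon of the same genotype; these comparisons share the AOM+DSS arrays with those above. Il1a, Il1b, Il1rn and Il33 were higher and Il18 was lower in tumors of both genotypes. In fl/fl, 6 of 9 genes rose and 1 fell (41.2% of all genes were called, 21.0% higher and 20.2% lower). In knockout, 4 rose and 1 fell (42.9% called, 21.5% higher and 21.4% lower).

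Il1a had the largest difference of the 9 genes in both genotypes. It was also the only member without overlap. A count of 1 in 9 is near the shares of all genes given below, so it does not set Il1a apart. In fl/fl tumors it ran from 7.17 (median 8.04) to 8.69, and in knockout tumors from 8.04 (median 8.39) to 9.25. Every tumor array exceeded every AOM+DSS colon array of its genotype, which held for no other member, and for 5.61% of all genes in fl/fl and 7.46% in knockout with tumors higher (6.38% and 7.24% with tumors lower). It rose by 2.08 ± 0.24 in fl/fl (4.22-fold, adjusted p = 1.42e-10) and by 1.88 ± 0.23 in knockout (3.69-fold, adjusted p = 8.72e-10).

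Il1b ran from 9.61 (median 10.73) to 11.39 in fl/fl tumors and from 10.26 (median 11.21) to 11.59 in knockout tumors. These overlapped the AOM+DSS arrays: 5 of 8 fl/fl tumors and 5 of 9 knockout tumors exceeded all of them. Il1b rose by 1.30 ± 0.35 in fl/fl (2.45-fold, adjusted p = 0.0019) and by 0.97 ± 0.34 in knockout (1.96-fold, adjusted p = 0.0169). Without knockout AOM+DSS replicate 2, the knockout difference was 0.69 (adjusted p = 0.0685).

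Il36g rose by 0.99 ± 0.34 in fl/fl tumors (1.98-fold, adjusted p = 0.0145), where it ran from 5.36 (median 6.54) to 7.63. In knockout tumors, at 5.63 (median 6.87) to 8.45, the difference of 0.69 was not called (95% interval 0.03 to 1.34). Il36a differed by 0.06 in fl/fl (-0.30 to 0.43) and by 0.01 in knockout (-0.34 to 0.37), neither called.

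Il18 ran from 9.59 (median 9.88) to 10.57 in fl/fl tumors and from 9.41 (median 9.87) to 10.53 in knockout tumors. It fell by 0.44 ± 0.14 in fl/fl (1.35-fold, adjusted p = 0.00839) and fell by 0.48 ± 0.13 in knockout (1.39-fold, adjusted p = 0.0025). Il33 ran from 8.20 (median 8.84) to 9.09 in fl/fl tumors and from 8.65 (median 9.14) to 9.73 in knockout tumors. It rose by 0.78 ± 0.19 in fl/fl (1.71-fold, adjusted p = 0.000553) and by 0.77 ± 0.18 in knockout (1.70-fold, adjusted p = 4e-04).

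Il1rn rose by 0.29 ± 0.09 in fl/fl tumors (adjusted p = 0.00676) and by 0.33 ± 0.09 in knockout tumors (adjusted p = 0.00169). Il1r1 rose by 0.73 ± 0.13 in fl/fl tumors (1.66-fold, adjusted p = 4.87e-06), with a difference of 0.28 in knockout (95% interval 0.03 to 0.54) that was not called. Il1r2 was called in neither genotype; the difference was 0.60 (0.09 to 1.11) in fl/fl, adjusted p = 0.0536, and 0.12 (-0.37 to 0.62) in knockout. In fl/fl it passed the threshold under 1 median for every array (adjusted p = 0.0385), without dim genes (0.0436), under quantile normalization (0.0489) and in 7 of the 18 fits that left out 1 array of these groups. Il1r1 in knockout passed it under 1 median for every array (0.0229), with array weights (0.0438) and in 3 of 19 such fits.

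Against untreated colon, the largest rises in tumors were in Il1b and Il1a. Il1b rose by 4.26 ± 0.35 in fl/fl (19.2-fold) and by 4.26 ± 0.34 in knockout (19.1-fold). Il1a rose by 3.41 ± 0.24 in fl/fl (10.6-fold) and by 3.74 ± 0.23 in knockout (13.4-fold). In fl/fl, 7 of 9 genes rose and 1 fell, with 45.4% of all genes called (22.9% higher, 22.5% lower); in knockout, 8 rose and 1 fell, with 47.3% called (23.6% higher, 23.7% lower). Il36a was the eighth in knockout, at 0.41 ± 0.18 (adjusted p = 0.0488), and it missed the threshold in 13 of the 19 fits that left out 1 array of those groups. In fl/fl, every tumor array lay above every untreated array for 7 genes, where 8.98% of all genes did so, and below for Il18, where 8.26% did so. In knockout this held for 6 genes, all higher (10.0% of all genes higher, 7.95% lower).

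Between genotypes, Il1r1 in AOM+DSS colon was the 1 member called, higher in knockout; 0.541% of all genes were called in that comparison, 0.419% higher. In fl/fl AOM+DSS colon it ran from 8.35 (median 8.61) to 9.60, and in knockout from 8.82 (median 9.22) to 9.81. Only 2 of 10 knockout arrays exceeded every fl/fl array, because fl/fl replicate 4 stood at 9.60 and the next at 9.08. The difference was 0.55 ± 0.12 (1.46-fold, adjusted p = 0.0312). The call was lost in a fit of the compared groups alone (adjusted p = 0.142), without the 2 AOM+DSS arrays of lowest Il1b (adjusted p = 0.0661) and in 9 of the 20 fits that left out 1 array of these groups (adjusted p up to 0.111).

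The genotype difference in the response of Il1r1 to AOM+DSS was 0.55 ± 0.18, p = 0.00299 before and 0.753 after adjustment by limma. None of the 9 genes, and 0.0% of all genes, was called for either difference in response; at an unadjusted p below 0.05 there was 1 member in each, Il1r1. The other 8 genes had knockout minus fl/fl differences in AOM+DSS colon between 0.02 (Il18) and 0.76 (Il1b), all above 0 and none called. Of all 9 members, 5 had an unadjusted p below 0.05 in that comparison: Il1a, Il1b, Il1r1, Il1r2 and Il33. The share of all genes at an unadjusted p below 0.05 was not counted here. The members at that level, in this and the other comparisons, therefore cannot be set against all genes. Il1a differed by 0.64 (95% interval 0.18 to 1.09, adjusted p = 0.166) and was called without knockout AOM+DSS replicate 2, at 0.81 (adjusted p = 0.0421). In limma's fit no member was called between genotypes in untreated colon (0.00451% of all genes; 1 member, Il18, at an unadjusted p below 0.05) or in tumors (0.00902% of all genes; 1 member, Il33, at an unadjusted p below 0.05).

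**Figure D3:**
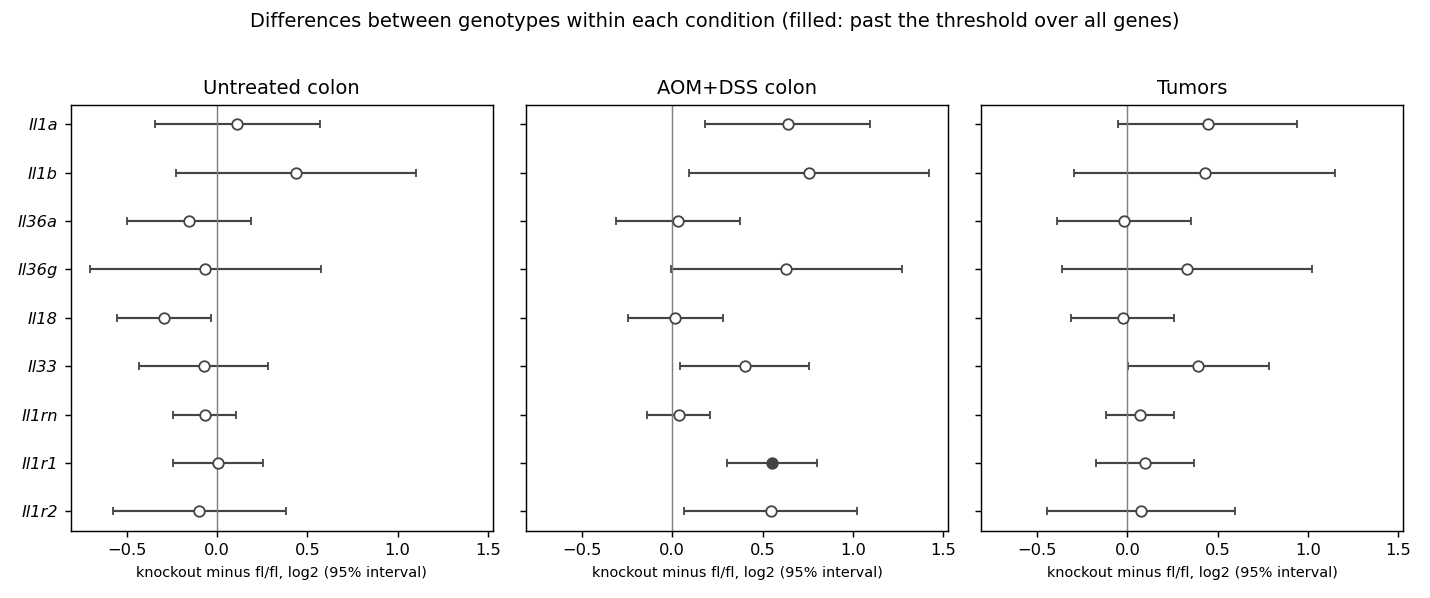
Knockout minus fl/fl log2 difference with 95% interval for the 9 genes in untreated colon, AOM+DSS colon and tumors; the filled point passed an adjusted p of 0.05 over all genes. Il1r1 in AOM+DSS colon, at 0.55, is the one filled point.

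Levels of cell type markers moved beside these genes. The mean of 11 neutrophil genes was 5.89 ± 0.12 and 5.82 ± 0.13 (SD) in untreated fl/fl and knockout colon, 7.03 ± 0.71 and 7.51 ± 0.68 after AOM+DSS, and 7.68 ± 0.61 and 8.03 ± 0.54 in tumors. After AOM+DSS, 10 of the 11 genes rose in fl/fl and 11 of 11 in knockout (12.2% and 16.0% of all genes rose). In tumors against AOM+DSS colon, 7 of 11 rose and 1 fell in fl/fl, and 5 rose and 1 fell in knockout (21.0% and 21.5% of all genes rose). Of the defining genes, S100a8 and S100a9 followed the order of the list mean, and Ly6g, bright at 10.84 in untreated fl/fl colon, was lower in tumors at 10.17. The mean of 14 squamous epithelium genes was 5.89 ± 1.15 in untreated fl/fl colon and 7.49 ± 1.26 after AOM+DSS, and 6.25 ± 1.002 in fl/fl tumors. In knockout it was 5.90 ± 0.97, 7.39 ± 1.22 and 5.98 ± 0.88; 8 of 14 genes rose after AOM+DSS in each genotype. Of the defining squamous genes, mean Krt14 went from 6.53 to 9.498 and Trp63 from 5.41 to 6.10 in fl/fl colon after AOM+DSS. The colon epithelium list mean was 11.33 ± 0.07 in untreated fl/fl colon and 11.05 ± 0.14 in fl/fl tumors, and the fibroblast list mean 10.05 ± 0.26 in fl/fl and 10.29 ± 0.12 in knockout AOM+DSS colon (median knockout minus fl/fl difference 0.28 over 9 fibroblast genes, 0.51 over 11 neutrophil genes and 0.71 over 7 B cell genes). All 12 macrophage and monocyte genes and all 7 B cell genes rose after AOM+DSS in both genotypes, and of 9 mast cell genes 6 rose in fl/fl and 7 in knockout, with 1 lower in each. In tumors against AOM+DSS colon, all 7 smooth muscle genes fell (medians -1.74 in fl/fl and -1.63 in knockout) and all 7 B cell genes fell (medians -1.47 and -2.07). Of 9 fibroblast genes, 6 fell in fl/fl and 7 in knockout, and none rose. Over all genes, 20.2% fell in fl/fl and 21.4% in knockout. Of the 9 mast cell genes 7 rose in fl/fl and 8 in knockout, with 1 lower in each. Beyond a fit with the squamous mean as a covariate, the part of the listed cell types in the results on any member was not tested.

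The AOM+DSS arrays of lowest Il1b had low neutrophil means: fl/fl replicate 1 at 5.94, inside the untreated range, and knockout replicate 2 at 6.17. With both left out, every call between conditions named above for Il1b, Il1a, Il1r2, Il36g and Il18 held, and Il1b in knockout tumors against AOM+DSS colon differed by 0.69 (adjusted p = 0.0198). With the squamous mean as a covariate, 3 calls between AOM+DSS and untreated colon were lost: Il36g in fl/fl (0.72, adjusted p = 0.0559), Il18 in knockout (-0.25, adjusted p = 0.171) and Il1rn in knockout (0.24, adjusted p = 0.0581). In the same fit, tumors against AOM+DSS colon gained calls: Il36a rose by 0.41 in each genotype (adjusted p = 0.00536 in fl/fl and 0.00474 in knockout), Il36g by 1.31 in knockout (adjusted p = 4.79e-05), Il1r1 by 0.35 in knockout (adjusted p = 0.0353) and Il1r2 by 0.85 in fl/fl (adjusted p = 0.0037). The Il36a arrays at the top were the 2 with the highest squamous means: fl/fl AOM+DSS replicate 8, with Il36a at 6.98 and a squamous mean of 9.08, and knockout AOM+DSS replicate 5, with 6.84 and 9.15. The untreated fl/fl array of highest Il36a, replicate 1 at 6.33, had a squamous mean of 8.33.

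**Figure D4:**
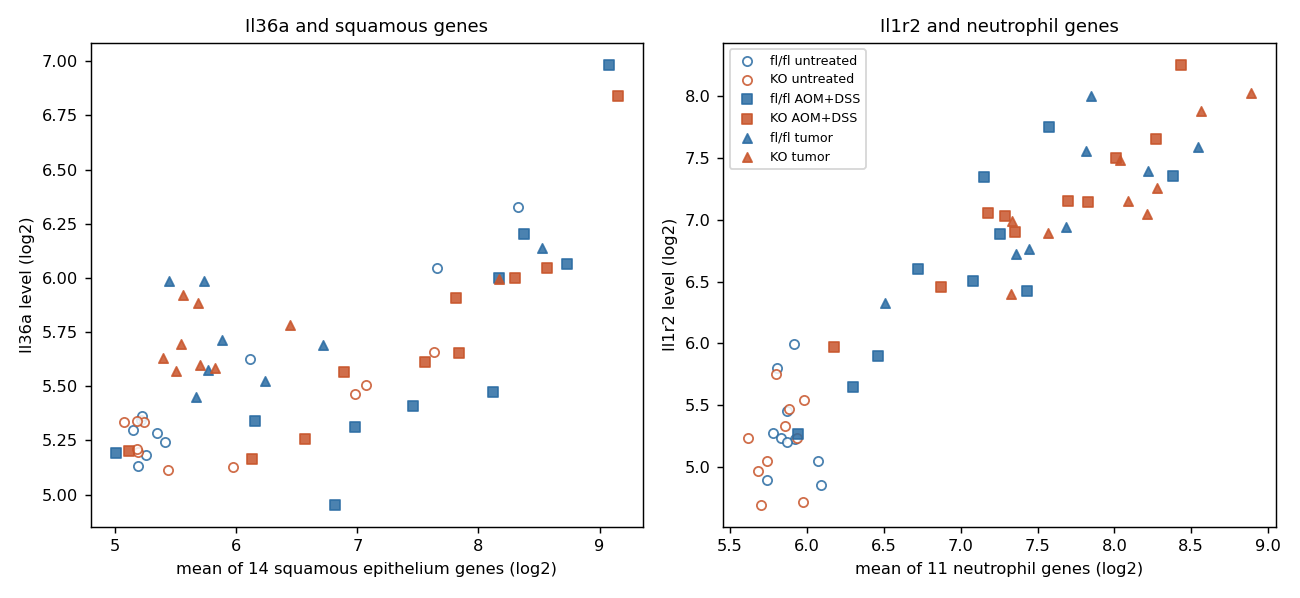
Il36a against the mean of 14 squamous epithelium genes (left) and Il1r2 against the mean of 11 neutrophil genes (right), in log2 units, 1 point per array; color and shape give genotype and condition. All untreated arrays lie at or below a neutrophil mean of 6.09 and an Il1r2 level of 6.00, and the 2 arrays of highest Il36a are those of highest squamous mean.

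The genes most like each member were ranked by Pearson's r over the 57 arrays after subtracting group means, as a description. Points share tissue makeup and array quality. Every neighbour named below had a lower coefficient without the 2 arrays farthest from the member's median. It was then 0.565 for Il1rn with Gpr137b and 0.515 for Il1b with Cxcl5. Il36a was most like Alox12b (0.93), Them5 (0.92), Serpinb12 (0.915), Hrnr (0.91) and Sbsn (0.91). Il36g was most like Ifitm1 (0.815), Ltf, Tgm1, Prss27 and Tmprss11g (each 0.81). Il1b was most like Clec4e (0.79), Adam8 (0.765), Srgn (0.75), Clec4d (0.74) and Cxcl5 (0.74), and Il1r2 most like Clec4d, Clec4e and Hdc (each 0.81), Cxcr2 (0.795) and Csf3r (0.76). Il1a was most like Cxcl3 (0.80), Cxcl5 (0.77), Lcn2 (0.76), Cemip (0.73) and Gja1 (0.73).

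The remaining members had other neighbours. Il18 was most like Slc25a20 (0.75), Bco2 (0.73), Ggh (0.72), Mcee (0.71) and Slc40a1 (0.70). Il33 was most like Tmtc3 (0.68), Sulf1, Hgf, Nemf and Hif1a (each 0.66). Il1r1 was most like Pdpn (0.77), Osmr (0.76), S1pr1 (0.74), Dram1 (0.72) and Mcemp1 (0.71), and Il1rn most like Gpr137b (0.74), Anxa8 (0.67), Capn2 (0.65), Lama3 (0.64) and Spopl (0.635). Among members the highest coefficients were Il1b with Il1r2 (0.74), Il1r2 with Il36g (0.70), Il1a with Il36g (0.70) and Il1a with Il1b (0.65); Il18 was below 0 with Il36g (-0.49) and Il1a (-0.45).

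Other genes of the pathway were read from lists. Of 4 further ligands and binding proteins, Il18bp, which binds and blocks IL-18, rose after AOM+DSS by 0.81 ± 0.16 in fl/fl and by 0.84 ± 0.16 in knockout, and Il36b and Il36rn were not called. Of 7 other receptors, 3 rose in fl/fl (22.7% of all genes were called) and 5 rose and 1 fell in knockout (30.2% called). Il1rl2, the IL-36 receptor, rose by 0.62 ± 0.16 in fl/fl and by 0.88 ± 0.16 in knockout; Il18r1 rose by 0.36 and 0.63 and Il18rap, its partner chain, by 0.58 and 1.04. Il1rap rose by 0.16 and Sigirr, an inhibitory receptor, fell by 0.22, in knockout. In tumors against AOM+DSS colon Il1rl2 fell by 0.52 ± 0.17 in fl/fl and fell by 0.51 ± 0.17 in knockout.

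Of 16 inflammasome and processing genes measured, 4 rose and 5 fell in fl/fl tumors against AOM+DSS colon (41.2% of all genes called) and 2 rose and 6 fell in knockout tumors (42.9% called); the list median was -0.01 and -0.11, against 0.02 and 0.00 for all genes. Nlrp6, a sensor of colon epithelium, fell by 2.12 ± 0.17 in fl/fl (adjusted p = 3.53e-16) and fell by 1.81 ± 0.16 in knockout (adjusted p = 3.38e-14). Pycard, the inflammasome adaptor, fell by 0.81 and 0.80, and Casp1, which encodes caspase-1, fell by 0.73 ± 0.09 and 0.60 ± 0.09. Nlrp3, a sensor of myeloid cells, rose by 0.53 ± 0.10 in fl/fl and by 0.42 ± 0.09 in knockout. After AOM+DSS against untreated colon, 2 of 16 rose and 1 fell in fl/fl (22.7% of all genes called) and 5 rose and 2 fell in knockout (30.2% called), with Casp1 at 0.09 and -0.07, not called.

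Of 15 signalling genes measured, 6 rose in fl/fl tumors and 6 rose and 1 fell in knockout tumors against AOM+DSS colon. The shares called in either direction are near those of all genes, 41.2% and 42.9%. By direction, 21.0% and 21.5% of all genes rose and 20.2% and 21.4% fell, so the calls of this list lay mostly on the higher side. The list median was 0.07 in fl/fl and 0.12 in knockout, and no set test was run. Ikbkb, a kinase of the NF-kappaB pathway, rose by 0.44 ± 0.06 and 0.38 ± 0.06, Traf6 by 0.30 and 0.25, Rela by 0.34 and 0.37 and Irak1 by 0.38 and 0.37 (fl/fl and knockout). Irak3, an inhibitor of IL-1 receptor signalling, rose by 0.45 ± 0.09 in fl/fl and by 0.55 ± 0.09 in knockout after AOM+DSS. Myd88 was called in none of these 4 comparisons.

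Of 12 genes known to be induced by IL-1 signals, 8 rose in fl/fl tumors and 6 in knockout tumors against AOM+DSS colon, and none fell (over all genes 21.0% and 21.5% rose and 20.2% and 21.4% fell). The median was 1.25 and 0.83, against 0.02 and 0.00 for all genes. This list was chosen with earlier results of these data known, so its counts are a description and no test of IL-1 action. Il23a rose by 3.21 ± 0.11 in fl/fl (adjusted p = 1.66e-31) and by 2.93 ± 0.11 in knockout (adjusted p = 1.75e-30), and Lcn2 by 2.85 ± 0.23 and 2.43 ± 0.23. The neutrophil chemokines Cxcl1 and Cxcl2 rose by 1.45 and 1.72 in fl/fl and by 1.32 and 1.73 in knockout. After AOM+DSS against untreated colon, 5 of 12 rose in fl/fl and 8 in knockout (12.2% and 16.0% of all genes rose), with Saa3 at 3.26 ± 0.39 and 3.99 ± 0.39 and Cxcl5 at 2.59 ± 0.36 and 3.59 ± 0.36. In those comparisons Il23a differed by 0.09 and 0.14, not called.

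**Figure D5:**
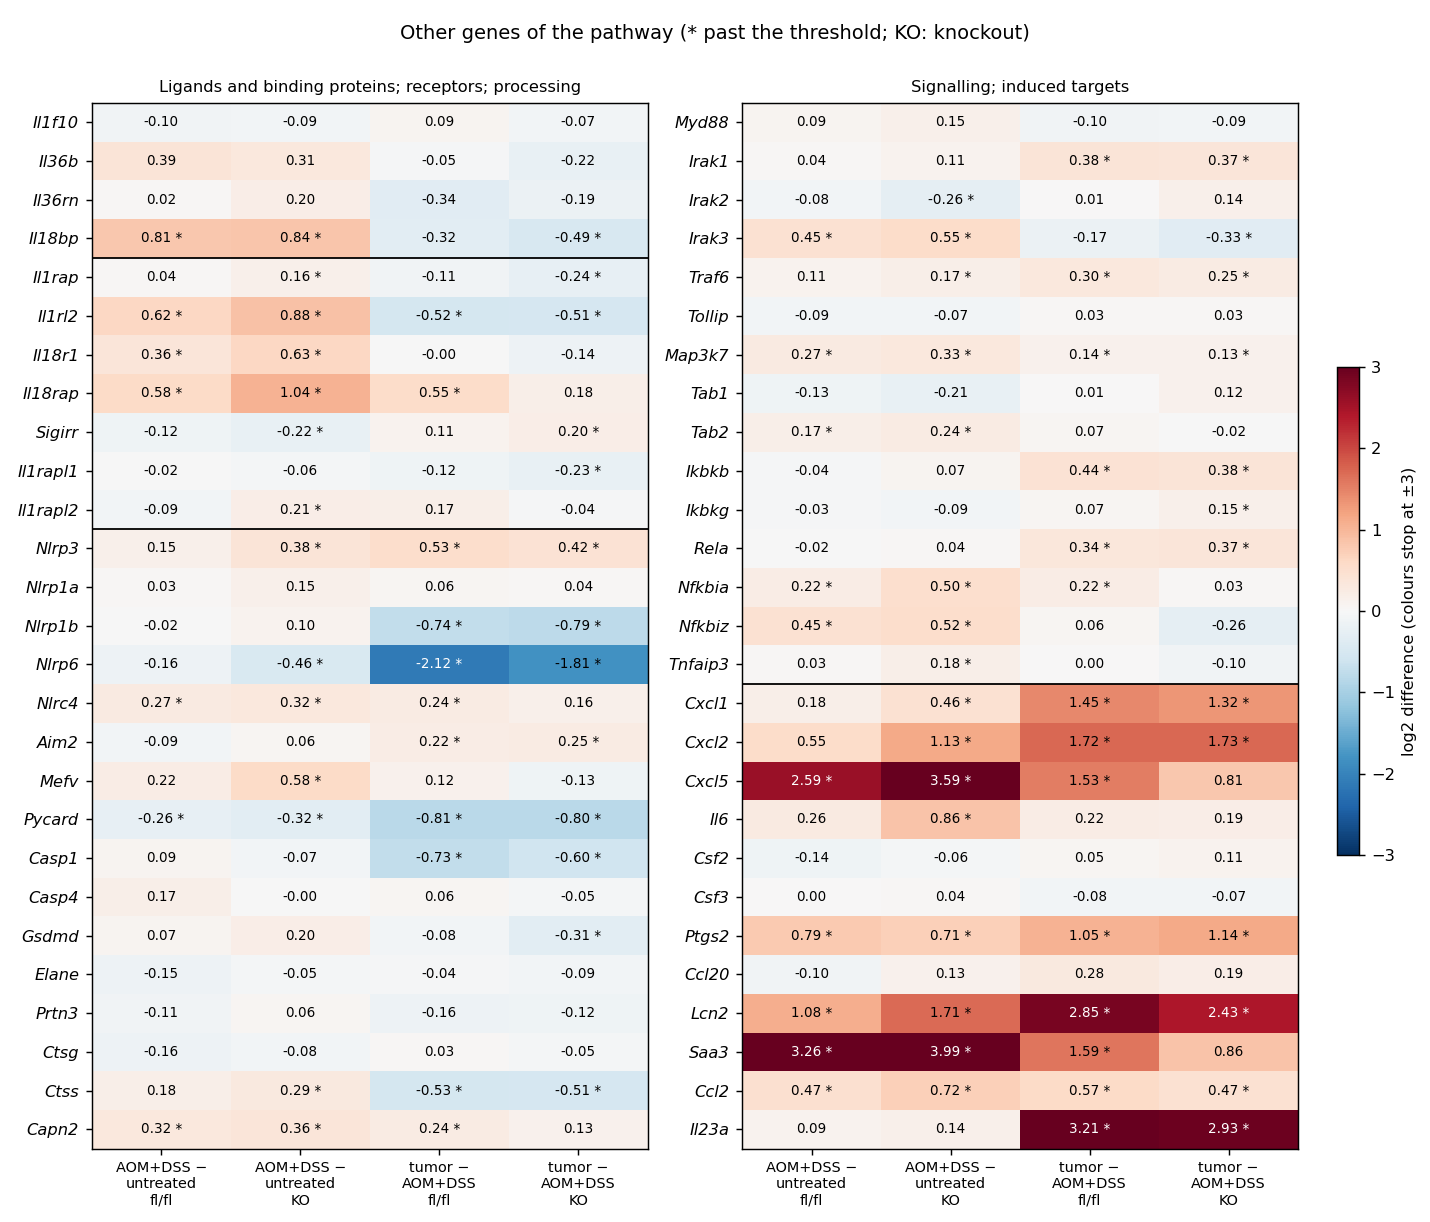
Log2 differences of the 54 other pathway genes measured in 4 comparisons; red is higher and blue lower in the first-named group, and a star marks an adjusted p below 0.05 over all genes. Nlrp6, Pycard and Casp1 are lower in tumors than in AOM+DSS colon of both genotypes, and Il23a, Lcn2, Cxcl1 and Cxcl2 are higher.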

How the data were processed

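Expression was measured with Affymetrix whole-transcript arrays on 57 samples in 6 groups. The deposited values are log2 levels, normalised by the authors with RMA per the submitters' processing notes (version not given in the sources used here). Of 41345 probe sets, 23521 had 1 gene symbol, 1814 several and 16010 none in the platform annotation; the brightest single-symbol probe set of a gene was used, giving 22180 genes, with no filter. One limma 3.58.1 model (R 4.3.3; lmFit, contrasts.fit, eBayes) with the 6 groups as factor gave 11 comparisons with 51 residual degrees of freedom. On simulated data for AOM+DSS against untreated fl/fl colon (22180 genes), it recovered 94% of changes of 0.5 and 98% of changes of 1. It also made 9 false calls there. Each simulated gene had the same spread in every group, while the SD of Il1b in fl/fl colon was 0.37 untreated and 1.23 after AOM+DSS. Recovery at the spread of each member, or with unequal spreads, was not tested. In the measured data, standard errors of the members in that comparison ran from 0.09 (Il1rn) to 0.33 (Il1b). Alternatives were 9 planned settings, 2 added after the data were seen and 57 fits that each left out 1 array. Members and lists were chosen with earlier results of these data known. All members were named, with up to 4 genes of each pathway list by smallest adjusted p, others needed to read a member, and the 5 genes most like each member. The array number limits precision. Promoters are from RefSeq (GRCm38.p6). Which transcripts each probe set covers was not used here.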

Additional observations from a re-analysis of the deposited data

Results flagged for a closer look

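Of 54 combinations of gene and group, 7 had 1 array far from the others by Dixon's criterion, which chance meets in about 1 in 20. In AOM+DSS knockout colon, replicate 2 was lowest for Il1b (7.59, the next at 9.84) and Il33 (7.25, the next at 8.13), and replicate 5 was highest for Il36a (6.84, the next at 6.05). In untreated knockout colon, replicate 2 was lowest for Il33 (6.32, the next at 7.24) and replicate 9 highest for Il36g (4.39, the next at 4.14). In untreated fl/fl colon, replicate 4 was lowest for Il1rn (8.31, the next at 8.48). In knockout tumors, replicate 6 was highest for Il1r1 (10.23, the next at 9.66).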

How the results depend on the processing

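Over 1089 member values under alternatives, 1064 stayed on their side of the threshold, 9 lost and 16 gained a call, and no called value was reversed; 21 of the 1064, called in neither setting, changed sign. With the squamous mean as a covariate, the count of members lower in knockout AOM+DSS against untreated colon went to 0 and that of members higher in knockout tumors against AOM+DSS colon to 7. The count higher in knockout against fl/fl AOM+DSS colon went to 0 with the compared groups only and 0 without the 2 arrays of lowest Il1b; over fits leaving out 1 array it ranged from 0 to 2, and for knockout tumors against AOM+DSS colon from 3 to 5. The cause was not tested. Over all genes, the 120 calls between genotypes in AOM+DSS colon became 2 with the compared groups only, 10 without those 2 arrays, 485 with array weights, 204 without dim genes, 188 with the replicate block and 236 with the squamous covariate, which also took AOM+DSS against untreated fl/fl colon from 5044 calls to 3341. Under 1 median for every array, calls after AOM+DSS were 2165 higher and 3839 lower in fl/fl (main 2715 and 2329) and 3090 and 4276 in knockout (main 3538 and 3154), and under quantile normalization 2254 and 2984 in fl/fl. Same-numbered arrays, after subtracting group means, correlated at medians of -0.07 to 0.13, with single pairs from -0.32 to 0.33. Such correlations cannot settle whether the replicate numbers pair the samples. In a limma fit with a replicate block, 1 member call changed, Il36a in knockout tumors against untreated colon (0.43, adjusted p = 0.055). Il1a and Il36g lie at the dim end of the arrays in untreated colon, which limits the precision of their folds.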
